A study of Homo sapiens with 8 samples.

Results

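The receptors and ligands of the EGFR family were examined in A-498 cells, an established line from a human kidney carcinoma. The group held 9 of the 28395 genes in the table and was chosen by gene name, with earlier results of these data known. It comprised the receptor genes EGFR, ERBB2 and ERBB3 and the ligand genes AREG, EREG, HBEGF, TGFA, EPGN and BTC. Polyadenylated RNA of 8 libraries was sequenced, 2 replicates from each of 4 derived lines. Control line 1 carried non-targeting sgRNA-1 and control line 2 carried non-targeting sgRNA-2, both with the genotype label wild type control. The other 2 lines had the genotype label ANXA4 knockout (KO). One of them carried ANXA4 sgRNA-1 (KO-labelled line 1) and the other ANXA4 sgRNA-2 (KO-labelled line 2). ANXA4 encodes annexin A4, a protein that binds phospholipid membranes in the presence of calcium. All lines grew in RPMI medium with 10% FCS, were seeded at equal cell numbers and were harvested after 24 hours before confluence, with an RNA quality number above 9.3. A single line stood for each guide, so a guide and its line cannot be told apart. Whether the replicates came from separate cultures was not stated, so the p-values measure the spread between these libraries, which may be technical.

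EGFR, ERBB2, ERBB3 and ERBB4 form a family of receptor tyrosine kinases. AREG, EREG, HBEGF, TGFA, EPGN, BTC and EGF are made as membrane-anchored precursors, are cut from the cell surface by proteases such as ADAM17 and bind EGFR, and several of them also bind ERBB4. ERBB2 has no known ligand and works as a partner of the other receptors, and ERBB3 binds neuregulins and has little kinase activity of its own. Active receptors signal through the RAS-ERK and PI3K-AKT cascades and are held back by feedback inhibitors. In clear cell kidney cancer TGFA is known as a ligand gene under the control of hypoxia-inducible factors.

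The 4 ligand genes EPGN, EREG, AREG and BTC lie in 1 cluster on chromosome 4 (GRCh38.p14), which spans 486 kb. EPGN (chr4:74308470-74316789, plus strand), EREG (chr4:74365145-74388749, plus strand) and AREG (chr4:74445136-74455005, plus strand) follow each other at 48.4 kb and 56.4 kb, and BTC (chr4:74744759-74794523, minus strand) lies 289.8 kb further on. The promoters of AREG and EREG are shown because the levels of these neighbours were far apart, with means of 661 and 1.09 normalized counts per kb of exon. That of EGFR, the gene of their receptor, is shown beside them. The sequences are from RefSeq (GRCh38.p14, plus strand) and end just before the annotated start. AREG covers chr4:74444886-74445133, EREG chr4:74364895-74365142 and EGFR chr7:55018767-55019016. Capitals mark matches, on either strand, to the cyclic AMP response element TGACGTCA, to the TATA box TATAAA and to the SP1-type motif GGGCGG, which reads CCGCCC on the opposite strand, and the AP-1 motif TGANTCA was searched as well. These motifs do not overlap each other in the windows shown.
AREG: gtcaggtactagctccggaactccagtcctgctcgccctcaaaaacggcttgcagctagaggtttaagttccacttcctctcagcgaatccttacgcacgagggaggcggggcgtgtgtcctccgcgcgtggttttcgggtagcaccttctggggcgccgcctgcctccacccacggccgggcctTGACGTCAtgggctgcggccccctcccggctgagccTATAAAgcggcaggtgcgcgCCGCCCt
EREG: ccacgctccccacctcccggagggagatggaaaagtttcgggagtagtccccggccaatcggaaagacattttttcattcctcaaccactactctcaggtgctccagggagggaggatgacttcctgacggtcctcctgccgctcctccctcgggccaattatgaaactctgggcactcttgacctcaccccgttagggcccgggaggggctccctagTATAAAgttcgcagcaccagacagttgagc
EGFR: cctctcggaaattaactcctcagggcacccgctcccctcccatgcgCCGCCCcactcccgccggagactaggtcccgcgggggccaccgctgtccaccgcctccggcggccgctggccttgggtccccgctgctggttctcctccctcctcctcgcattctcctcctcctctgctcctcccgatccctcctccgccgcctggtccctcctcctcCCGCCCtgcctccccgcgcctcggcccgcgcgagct

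The AREG window held TGACGTCA at 65 bases before the start, TATAAA at 29 bases and 1 GGGCGG match at 9 bases. In the EREG window TATAAA lay 32 bases before the start, and none of the other motifs matched. The EGFR window held GGGCGG matches at 204 and 36 bases before the start. Among the 35116 RefSeq promoters searched over 250 bases, TGACGTCA was in 1.65%, TATAAA in 10.7%, GGGCGG in 42.6% and TGANTCA in 6.57%. A match is a stretch of letters and no measured binding site. EGFR has a second annotated start, whose window was searched but is not shown. It held TGANTCA at 232 and 136 bases and TATAAA at 146 and 36 bases before that start.

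ANXA4 was examined first, to check the labels. Control line 1 had 2821 and 3614 normalized counts, control line 2 had 3858 and 6773, KO-labelled line 1 had 235.6 and 234.4 and KO-labelled line 2 had 3433 and 4142. The transcript was low in KO-labelled line 1 alone (log2 difference from the controls -4.10, limma adjusted p 5.88e-05), whereas KO-labelled line 2 overlapped the controls (-0.10, adjusted p 0.818). Read counts per gene show neither a frameshift nor the protein, so each direction given for the KO-labelled lines refers to their labels. Depth ranged from 15784890 to 22631588 reads per library, and mitochondrial genes held 4.67% to 13.8% of the reads, with the highest share in replicate 2 of KO-labelled line 2. All 8 markers of a kidney carcinoma line were above 3 reads in at least 1 library (summed level 91168 to 119542 in control and 84478 to 130144 in KO-labelled libraries), among them the renal factor PAX8. Of these 8 markers VIM, an intermediate filament gene, was at 37386 and 42862 in KO-labelled line 1, at 48712 and 81410 in KO-labelled line 2 and at 55646 to 83227 in the controls. The keratin genes KRT8 (24452 to 31461 against 16747 to 20381) and KRT18 (11228 to 13291 against 6032 to 9955) were higher in all 4 KO-labelled libraries than in any control. Over all tested genes, 10.6% had such separate ranges in either direction. NNMT, another of the 8 markers, went opposite ways in the KO-labelled lines. Per kb of exon it was at 221 and 248 normalized counts in line 1, 440 and 542 in line 2 and 277 to 350 in the controls. The part of these marker genes in the differences of the 9 genes was not tested. The 4 leukocyte markers summed to 5.19 to 14.5, the 3 endothelial markers to 1.21 to 6.24 and the 3 fibroblast markers to 1.04 to 19.8 in any library, with CD3E, CDH5 and LUM at 0.

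Per length, TGFA, AREG and EGFR were the most abundant transcripts of the 9. Levels were divided by the exon length of each gene in GENCODE v29, and the means over 8 libraries were 1129 normalized counts per kb for TGFA, 661 for AREG, 197 for EGFR, 76.7 for HBEGF, 62.0 for ERBB2 and 28.4 for BTC. EPGN at 3.01, EREG at 1.09 and ERBB3 at 0.73 counts per kb were far lower. The ranges of neighbours in this order overlapped with 1 exception. The lowest BTC library, at 14.4 counts per kb, was above the highest EPGN library, at 6.65. Outside the 9, the neuregulin gene NRG1 had 90.0 counts per kb, between EGFR and HBEGF, EGF had 13.95 and the receptor ERBB4 0.49. The transcripts of 2 receptors and 4 EGFR ligands were thus measured with at least 46 reads in every library, and those of ERBB3, EREG, EPGN and ERBB4 with 1 to 16 reads.

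**Figure D1:**
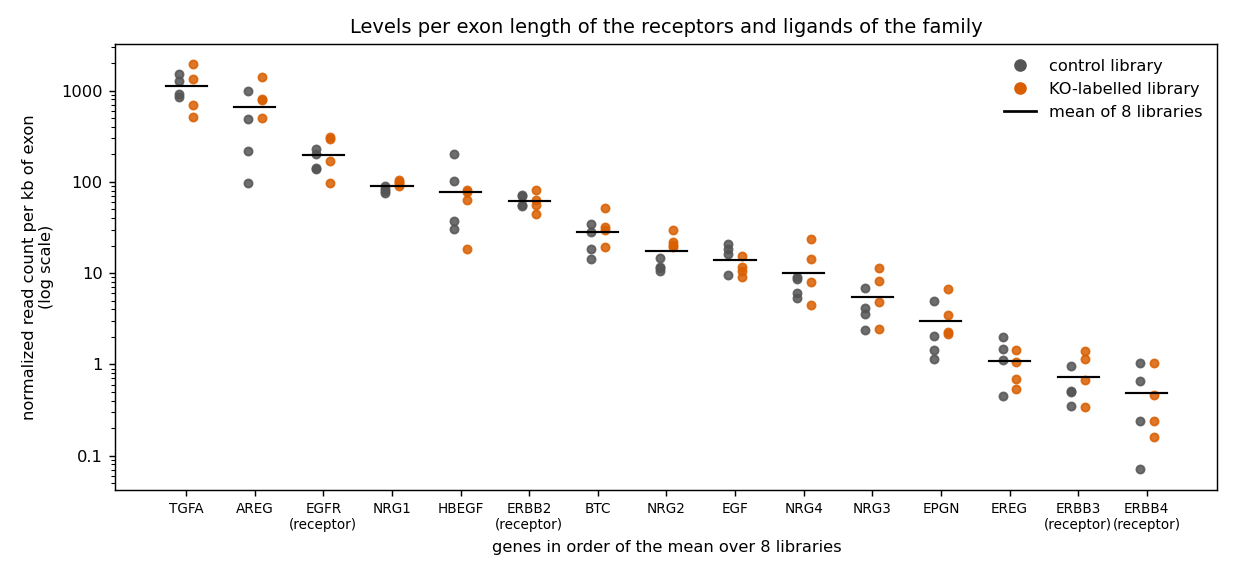
Levels of the 9 genes and of the other 6 family receptors and ligands, as normalized read count per kb of exon on a log axis, in order of the mean over 8 libraries (bar). Each point is 1 library (grey for control, orange for KO-labelled), and TGFA (1129), AREG (661) and EGFR (197) lead while EREG, ERBB3 and ERBB4 lie near 1.

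Between the KO-labelled and the control libraries, 0 of the 7 tested genes differed. A gene was tested where at least 2 libraries had a normalized count of 10 or more, which EREG and EPGN did not reach and ERBB3 reached through replicate 1 of both KO-labelled lines. The test was limma on log2(count + 1) over 14040 genes, with the correlation of libraries within a line taken into account, and a Benjamini-Hochberg adjusted p under 0.05 counted as a call. Over all genes 0.235% were called. Of the 7, 0 had an unadjusted p under 0.05, where 1615 of all genes did. The count tests edgeR and DESeq2 also called 0 of the 7, beside 1.32% and 6.05% of all genes. In this comparison both treated the libraries of a line as independent, unlike limma. A separate mean for each line, which leaves out the spread between lines, called AREG (adjusted p 0.031), or 1 of 7, beside 10.5% of all genes. The ranges of the 4 KO-labelled and the 4 control libraries overlapped for all 9, whereas they were separate for 10.6% of tested genes. A two-sided exact permutation test over libraries gave p between 0.171 (AREG) and 0.8 (ERBB2) for single genes, with 0.0286 as the smallest p possible over 70 arrangements. Line means allow none under 0.333. With the replicate number as a block 0.264% of genes were called and 0 of the 7. For AREG, HBEGF, TGFA, BTC and EGFR the means of the 4 lines were spread more widely (SD 0.52 to 1.24 on the log2 scale) than the replicates of a line (0.37 to 0.64), so the lines were also compared one by one.

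**Figure D2:**
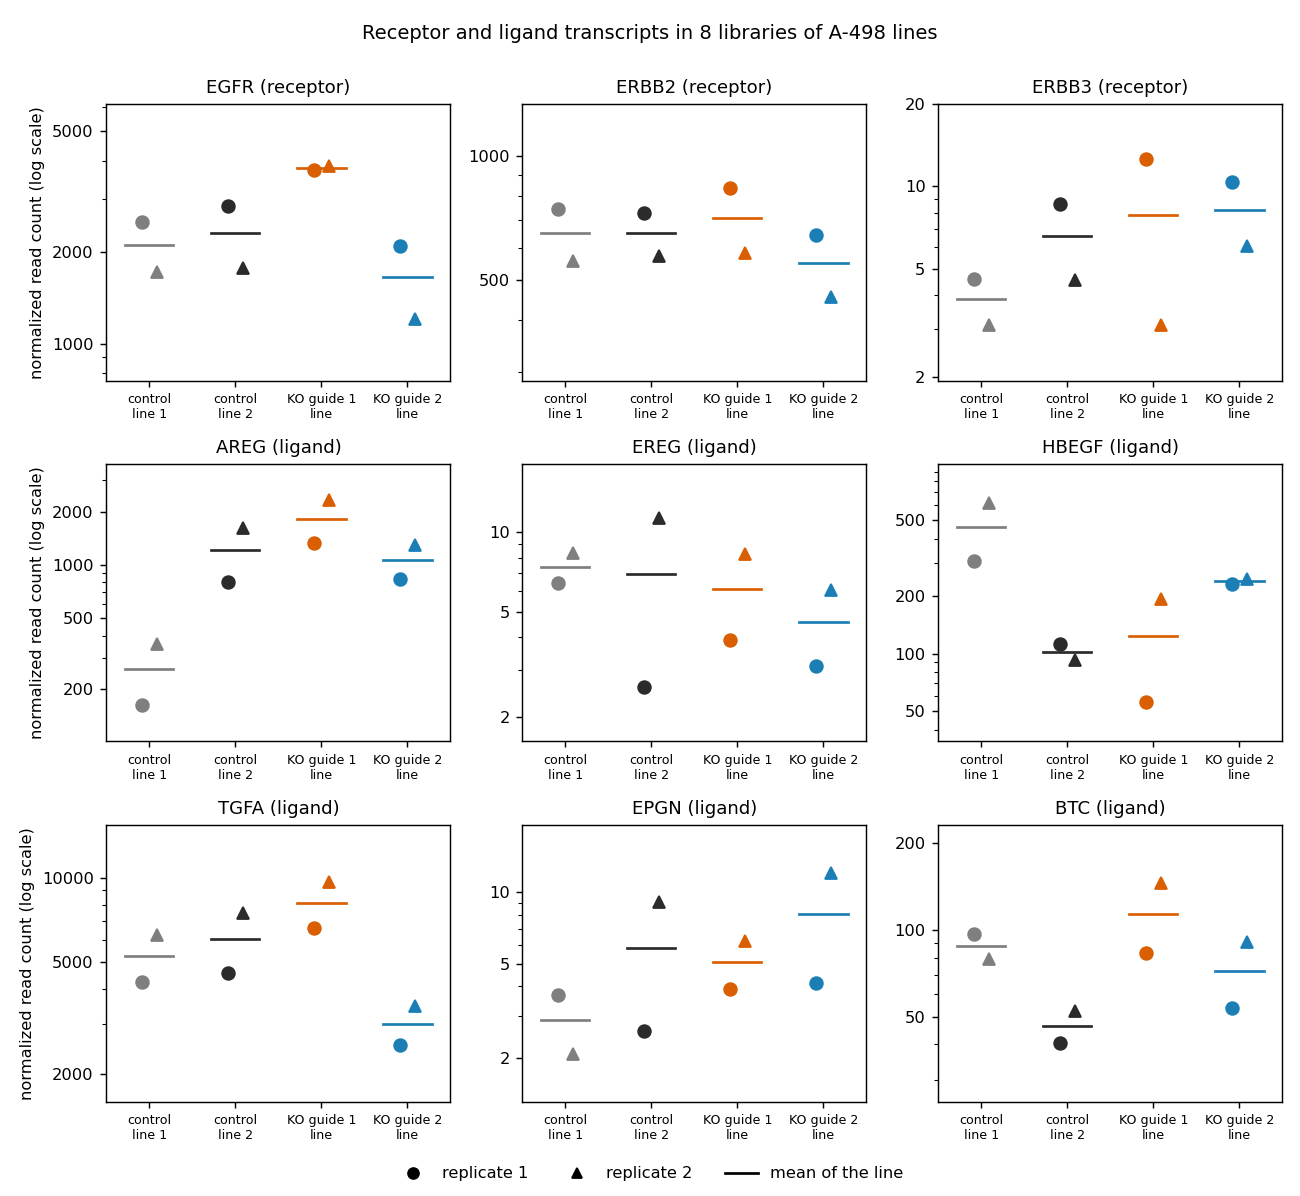
Normalized read count (log axis) of each of the 9 genes in the 8 libraries, by line, with replicate 1 as circles, replicate 2 as triangles and the mean of the line as a bar. EGFR is highest in KO-labelled line 1 (3732 and 3856), AREG is lowest in control line 1 (162 and 359) and TGFA is lowest in KO-labelled line 2 (2540 and 3480).

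Among the receptors, EGFR (chr7:55019017-55211628, plus strand), the receptor of all 6 ligands, had 2516 and 1721 normalized counts in control line 1, against 2845 and 1774 in control line 2. It was at 3732 and 3856 in KO-labelled line 1 and at 2098 and 1206 in KO-labelled line 2. Both libraries of KO-labelled line 1 lay above all 6 others, and KO-labelled line 2 held the lowest value. In bulk RNA of a line, fewer cells with the transcript and less transcript per cell cannot be told apart. Because the KO-labelled lines went opposite ways, their joint difference from control was 0.18 (log2, SE 0.39, limma adjusted p 0.923), from 2214 ± 556 to 2723 ± 1290 (SD, n = 4 each). KO-labelled line 2 had less EGFR transcript than KO-labelled line 1, 1652 ± 631 against 3794 ± 87.5 (SD, n = 2 each), a log2 difference of -1.25 (95% interval -1.94 to -0.56, adjusted p 0.045). This call was lost with edgeR (adjusted p 0.0531), without the filter (0.0584) and without any 1 of 5 libraries (both of control line 1, both of KO-labelled line 1 and replicate 2 of KO-labelled line 2, adjusted p 0.0661 to 0.228). Without replicate 2 of KO-labelled line 2 the difference was -0.85. Against both control lines EGFR differed by 0.81 in KO-labelled line 1 (adjusted p 0.103) and by -0.44 in KO-labelled line 2 (0.33). With the replicate block both were called (0.00178 and 0.0373). DESeq2 called the first (0.0248). EGFR overlaps the antisense gene EGFR-AS1, and strand use in counting was not stated, so reads of the 2 cannot be told apart.

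ERBB2 (chr17:39688094-39728658, plus strand), the receptor without a ligand, was the steadiest of the 9, with a 1.84-fold range over 8 libraries. It was at 744 and 556 in control line 1, 726 and 572 in control line 2, 838 and 581 in KO-labelled line 1 and 645 and 456 in KO-labelled line 2. Replicate 1 was above replicate 2 in each line, and the lines overlapped. The difference between KO-labelled and control libraries was -0.07 (log2, 95% interval -0.60 to 0.47, limma adjusted p 0.958), and its sign turned without 1 of 3 libraries (at most 0.07, without replicate 2 of KO-labelled line 2). With the replicate block KO-labelled line 2 was lower than KO-labelled line 1 (-0.36, adjusted p 0.042, and 0.411 without the block). The annotated gene MIEN1 overlaps ERBB2.

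ERBB3 (chr12:56080108-56103505, plus strand), the neuregulin receptor, was close to the limit of detection. It had 5 and 3 reads in control line 1, 10 and 4 in control line 2, 16 and 3 in KO-labelled line 1 and 10 and 5 in KO-labelled line 2. Replicate 1 exceeded replicate 2 in every line, at normalized counts of 4.6, 8.6, 12.5 and 10.3 against 3.12, 4.53, 3.11 and 6.04. The difference between KO-labelled and control libraries, 0.46, had a 95% interval from -0.94 to 1.87 (limma adjusted p 0.862). Because ERBB3 reached the minimum for testing in KO-labelled libraries alone, this value is a description only.

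AREG, the gene of amphiregulin, was the member with the widest range over the libraries, 14.3-fold. Control line 1 had 162 and 359 normalized counts, whereas control line 2 had 799 and 1627. In KO-labelled line 1 it reached 1325 and 2317, and in KO-labelled line 2 it was at 833 and 1298. Both libraries of control line 1 lay below all 6 others, while control line 2 overlapped both KO-labelled lines. The controls averaged 737 ± 651 (SD, n = 4) and the KO-labelled libraries 1443 ± 625 (SD, n = 4), which differed on the log2 scale by 1.36 (SE 0.65, 95% interval -0.08 to 2.80, limma adjusted p 0.469). The KO-labelled mean was higher by 1.54 within replicate 1 and by 1.18 within replicate 2.

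AREG also differed between the 2 controls, which carried no ANXA4 guide. Control line 2 was above control line 1 by 2.24 (log2, SE 0.46, limma adjusted p 0.0469), or 1213 ± 585 against 260.3 ± 139 (SD, n = 2 each). AREG was the 1 call of 7 there, beside 2.13% of all genes. The call was lost with edgeR (0.0516), without the filter (0.0581) and without any 1 library of control line 1, control line 2 or KO-labelled line 1 (0.0522 to 0.244), with the difference between 1.67 and 2.81. KO-labelled line 1 was above the mean of both controls by 1.74 (SE 0.40, adjusted p 0.0368), again the 1 call of 7, beside 7.01% of all genes. Leaving out replicate 1 of control line 1, replicate 1 of control line 2 or either replicate of KO-labelled line 1 ended this call (adjusted p 0.0509 to 0.281). KO-labelled line 2 was 0.99 above the controls (adjusted p 0.151). In that line 0 of 7 were called by limma and edgeR, beside 11.2% and 11.0% of all genes. At an unadjusted p under 0.05 there were 2 of 7 with either tool, where 3749 of the 14040 genes were. DESeq2 called 2 of 7 in KO-labelled line 1 (AREG and EGFR, beside 10.3% of all genes), TGFA alone in KO-labelled line 2 (13.1%), AREG and HBEGF between the controls (4.67%) and EGFR and TGFA between the KO-labelled lines (9.93%).

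With the replicate number as a block, more of the 7 passed the threshold, as did more of all genes. In KO-labelled line 1 against the controls 5 passed, beside 24.4% of all genes. In KO-labelled line 2 it was 3, beside 27.4%. Between the controls 3 passed, beside 12.5%, and between the KO-labelled lines 5, beside 24.5%. For AREG the blocked adjusted p was 1.73e-06 in KO-labelled line 1, 9.3e-05 in KO-labelled line 2, 1.05e-06 between the controls and 0.00206 between the KO-labelled lines, where line 2 was lower by -0.75. The comparisons of single lines with the controls share the control libraries.

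**Figure D3:**
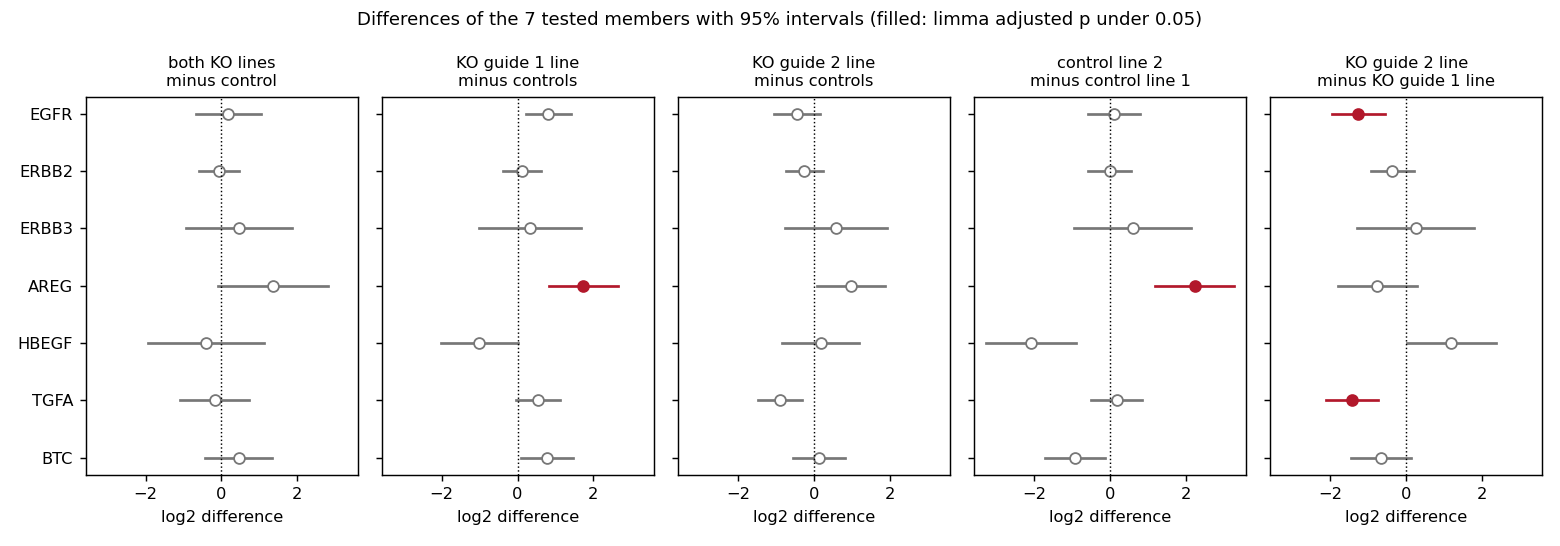
Log2 differences of the 7 tested genes with 95% intervals (limma, no replicate block) in 5 comparisons of lines, filled red where the adjusted p was under 0.05. AREG is filled in KO-labelled line 1 against controls (1.74) and between the control lines (2.24), and EGFR (-1.25) and TGFA (-1.42) between the KO-labelled lines.

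TGFA (chr2:70447284-70553826, minus strand), the gene of transforming growth factor alpha, had the highest level of the 9. It was at 4246 and 6266 in control line 1, 4568 and 7491 in control line 2, 6603 and 9642 in KO-labelled line 1 and 2540 and 3480 in KO-labelled line 2. Both libraries of KO-labelled line 2 lay below all 6 others. The arms as a whole stood at 5643 ± 1518 and 5566 ± 3225 (SD, n = 4 each), a log2 difference of -0.17 (SE 0.41, limma adjusted p 0.934). KO-labelled line 2 was lower than KO-labelled line 1 by -1.42 (95% interval -2.10 to -0.75, adjusted p 0.0289). With EGFR this made 2 of 7 called between the KO-labelled lines, beside 6.94% of all genes, and edgeR called TGFA alone, beside 6.55%. The TGFA call was lost without any 1 library of the KO-labelled lines (0.0538 to 0.21), where 1 line then has 1 library and is assumed to vary like the others. Against the controls KO-labelled line 2 differed by -0.89 (0.0602) and KO-labelled line 1 by 0.54 (0.247). Both were called with the replicate block (4.18e-05 and 0.00159), and DESeq2 called the first (0.00407). TGFA lies on chromosome 2 as ANXA4 does, 620.2 kb beyond its end with 10 protein-coding genes between them. It overlaps TGFA-IT1 in the annotation.

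HBEGF (chr5:140332843-140346603, minus strand), the heparin-binding ligand, varied 11.1-fold and in another order of lines. It was at 305 and 615 in control line 1, 112 and 92.9 in control line 2, 55.6 and 193 in KO-labelled line 1 and 231 and 247 in KO-labelled line 2. Control line 1, which had the least AREG, had the most HBEGF. Control line 2 was below control line 1 by -2.08 (log2, SE 0.52, limma adjusted p 0.0804). This was called with the replicate block (0.00312), with DESeq2 (0.000192) and without either library of KO-labelled line 1 (0.0351 and 0.0365). The difference between KO-labelled and control libraries was -0.42 (95% interval -1.95 to 1.12, adjusted p 0.895), and its sign turned without replicate 2 of control line 1 (0.0066) or replicate 1 of KO-labelled line 1 (0.07). With the block, HBEGF was also called as lower in KO-labelled line 1 than in the controls (-1.01, adjusted p 0.0322, and 0.211 without it) and as higher in KO-labelled line 2 than in line 1 (1.195, adjusted p 0.0294, and 0.2 without it).

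BTC, the gene of betacellulin, was at 96.5 and 79.0 in control line 1, 40.4 and 52.1 in control line 2, 83.0 and 145 in KO-labelled line 1 and 53.8 and 90.5 in KO-labelled line 2. Control line 2 had the 2 lowest values and KO-labelled line 1 the highest. The difference between KO-labelled and control libraries was 0.46 (95% interval -0.42 to 1.34, limma adjusted p 0.742), 0.09 within replicate 1 and 0.83 within replicate 2. With the replicate block BTC was called in KO-labelled line 1 against the controls (0.78, adjusted p 0.0291, and 0.157 without it) and between the controls (-0.91, adjusted p 0.0449, and 0.241 without it).

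EREG and EPGN, the genes of epiregulin and epigen, were detected with few reads. EREG had 7 and 8 reads in control line 1, 3 and 10 in control line 2, 5 and 8 in KO-labelled line 1 and 3 and 5 in KO-labelled line 2. EPGN had 4 and 2, 3 and 8, 5 and 6, and 4 and 10 reads in the same order. Neither was tested across genes. Their mean normalized counts were 7.17 ± 3.66 and 5.34 ± 2.33 for EREG and 4.35 ± 3.21 and 6.59 ± 3.80 for EPGN in control and KO-labelled libraries (SD, n = 4 each), with a two-sided exact permutation p of 0.543 and 0.286. Both lie in the same cluster as AREG, whose mean level per kb was 661 against 1.09 and 3.01. EREG and EPGN share the overlapping annotated transcript LOC105377276.

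Several of the genes differed with the replicate number, which is no condition of the study. In a model with line means, 4 of 7 differed between replicate 2 and replicate 1, beside 17.6% of all genes. AREG was higher in replicate 2 by 0.90 (SE 0.10, limma adjusted p 0.000312), with 1.14 and 1.02 in the control lines and 0.81 and 0.64 in the KO-labelled lines. TGFA was higher by 0.57 (SE 0.08, adjusted p 0.00103), between 0.45 and 0.71 in the 4 lines. ERBB2 was lower by -0.45 (SE 0.08, adjusted p 0.00532), between -0.53 and -0.34. These 3 were called without each single library in turn (adjusted p at most 0.0304). EGFR was lower by -0.50 (SE 0.12, adjusted p 0.0151), but with -0.55, -0.68 and -0.80 in 3 lines and 0.05 in KO-labelled line 1. Leaving out any 1 library of control line 1, control line 2 or KO-labelled line 2 ended that call (0.0539 to 0.103), at -0.48, -0.43 and -0.39.

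HBEGF, BTC and ERBB3 were not called between replicates, and EREG and EPGN were not tested. AREG and TGFA were higher in replicate 2 in 4 of 4 lines, a pattern seen in 20.2% of tested genes, and ERBB2 was lower in 4 of 4, as 19.3% were. EREG, with 3 to 10 reads, had differences of 0.33 to 1.78, and ERBB3, with 3 to 16 reads, of -1.72 to -0.44. HBEGF (0.66, adjusted p 0.0912) and BTC (0.40, adjusted p 0.159) were higher in 3 of 4 lines. Depth was lower in replicate 2 of all 4 lines. The mitochondrial share of reads moved from 4.67% to 6.35% and from 6.39% to 9.05% in the controls, from 6.43% to 6.23% in KO-labelled line 1 and from 6.40% to 13.8% in KO-labelled line 2. The part of depth and of the mitochondrial share in these differences was not tested.

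**Figure D4:**
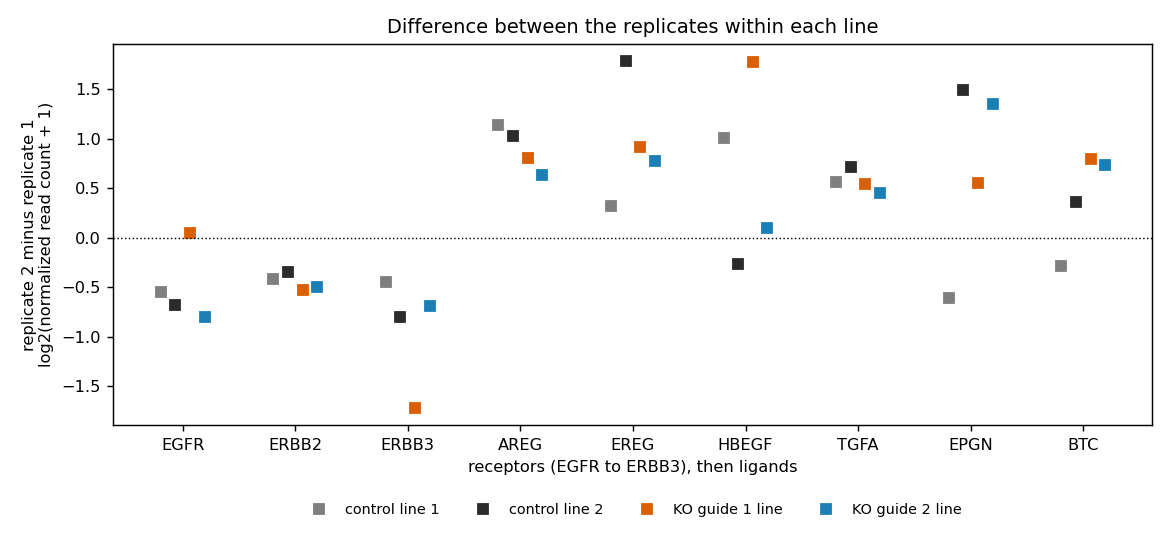
Difference between replicate 2 and replicate 1, as log2(normalized read count + 1), for the 9 genes in each of the 4 lines (squares). AREG (0.64 to 1.14) and TGFA (0.45 to 0.71) lie above 0 in all lines, ERBB2 (-0.53 to -0.34) lies below, and EGFR lies below in all but KO-labelled line 1 (0.05).

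Of the remaining family, NRG1 was the most abundant neuregulin, at 852 to 1028 normalized counts in control and 1024 to 1175 in KO-labelled libraries. Of the 6 genes tested, 0 were called between KO-labelled and control libraries by limma and edgeR. In limma 1 of the 6 had an unadjusted p under 0.05, where 1615 of the 14040 genes did. The median difference of the 6 was 0.39, beside 0.00 (0.00073) over all genes. Against the controls this median was 0.72 in KO-labelled line 1 and -0.21 in KO-labelled line 2. Between the controls, control line 2 minus control line 1, it was 0.62. NRG2, a neuregulin gene, was at 47.8, 52.0, 66.2 and 52.1 in the controls and at 90.8, 132.8, 87.9 and 99.0 in the KO-labelled libraries. The 4 KO-labelled values all lay above the 4 controls, with a log2 difference of 0.89 (SE 0.25, adjusted p 0.201, and 0.304 with the replicate block). DESeq2, which treated the libraries of a line as independent here, called this difference (adjusted p 0.00686). So did limma with a separate mean for each line (0.0195), a setting that called 10.5% of all genes. Against the controls NRG2 was higher by 1.01 in KO-labelled line 1 (limma adjusted p 0.0354) and by 0.77 in KO-labelled line 2 (0.0611). NRG4 was higher in KO-labelled line 1 by 1.36 (0.035), with 119 and 72.6 normalized counts against 27.0 to 45.3 in the controls. NRG4 was lower in KO-labelled line 2 than in line 1 by -1.59 (0.0344). These 3 calls were lost without the filter (0.0577 to 0.0596) and without 5 or 6 of the single libraries (at most 0.292). NRG3 was higher in replicate 2 by 0.76 (0.0385), and lost that call without the filter (0.0872), with DESeq2 (0.153) and without each single library in turn (0.0519 to 0.157). With the replicate block NRG3 was also called in KO-labelled line 1 against the controls (1.24, adjusted p 0.00697) and between the KO-labelled lines (-1.44, 0.0072), and NRG2 (0.77, 0.0162) and NRG1 (0.31, 0.0474) in KO-labelled line 2. EGF was not called in any of the 6 comparisons, and NRG1 and ERBB4 in none without the block. ERBB4, the receptor for neuregulins and some EGFR ligands, had 0.919 to 13.6 normalized counts, and its difference of 0.06 turned to -0.08 with edgeR. Control line 2 was above control line 1 in ERBB4 by 2.07 with the block (adjusted p 0.0415, and 0.234 without it).

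Genes around the receptors were read from 4 further lists, and 0 of the 63 genes tested in them were called by limma between KO-labelled and control libraries. At an unadjusted p under 0.05 there were 5 in limma, where 1615 of the 14040 genes were. The count tests treated the libraries of a line as independent here. They called 0 (edgeR) and 1 (DESeq2, SPRY1), beside 1.32% and 6.05% of all genes. The rule named the 3 smallest p-values in each list. Among genes that release and traffic the ligands (11 of 12 tested) these were the metalloproteases ADAM12 (-0.49, adjusted p 0.347), ADAM9 (0.41, 0.383) and ADAM19 (-0.72, 0.385). Among adaptors and first signalling steps (23 of 24 tested) they included the phospholipase PLCG1 (-0.40, 0.442) and the endocytic adaptor EPS15 (0.32, 0.481). Among inhibitors of the receptors (14 tested) they were the RAS-ERK inhibitor SPRED1 (0.55, 0.348), the phosphatase gene UBASH3B (-0.38, 0.489) and LRIG1 (0.40, 0.591), which promotes receptor degradation. Among outputs and feedback genes of the ERK cascade (15 tested) they were the feedback inhibitor SPRY1 (1.63, 0.305), the phosphatase DUSP5 (0.48, 0.495) and the transcription factor ETV4 (-0.50, 0.605). SPRY1 was at 4.60, 20.8, 15.5 and 22.7 in the controls and at 42.3, 68.5, 33.1 and 41.04 in the KO-labelled libraries, which were all higher. The medians of the 4 lists were 0.01, 0.05, 0.12 and 0.14. None of the 11 genes named here was called with the replicate block (0.294 to 0.704). A separate mean for each line, which leaves out the spread between lines, called 6 of the 63, beside 10.5% of all genes. Among them were ADAM12 (limma adjusted p 0.0141), ADAM19 (0.0308), PLCG1 (0.0357), SPRED1 (0.0253) and SPRY1 (0.0418).

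More genes of these lists differed between the KO-labelled lines, and the genes named in the rest of this paragraph and the next 2 were chosen after their values were seen. In the ERK list, 11 of 15 genes were lower in KO-labelled line 2 than in line 1 (median -0.48, beside -0.01 (-0.0054) over all genes), with 3 called as lower and 1 as higher, or 4 of 15, beside 6.94% of all genes. Most genes of the other lists were lower there too. These were 12 of 14 receptor inhibitors (median -0.30), 8 of 11 shedding genes (-0.17) and 15 of 23 adaptors and first signalling steps (-0.03). The called genes of the ERK list were the transcription factors ETV4 (-0.98, adjusted p 0.0353) and ETV5 (-0.96, 0.00752) and the receptor kinases EPHA2 (-0.71, 0.0444) and EPHA4 (1.15, 0.0241). ETV5 was at 1184 and 1160 normalized counts in KO-labelled line 1 and at 644 and 564 in KO-labelled line 2, with 799 to 1008 in the controls between them. ADAM17, the main protease of several EGFR ligands, was the 1 call among 11 shedding genes, a share near that of all genes, at 1954 and 1976 against 940 and 821 (-1.16, adjusted p 0.024), and the controls lay at 1070 to 1718. The receptor phosphatase gene PTPRJ (-1.26, 0.00759), the lipid kinase gene PIK3CA (-1.05, 0.0393) and SPRED2 (-0.57, 0.0497) were lower in KO-labelled line 2, and PLCG1 was higher (0.56, 0.0494). Each of the 10 calls between these lines outside the 9 genes was lost without at least 1 single library (adjusted p up to 0.282), and those of NRG4, EPHA2, PIK3CA, PLCG1 and SPRED2 were also lost without the filter. The calls of PLCG1 and SPRED2 were lost without each single library in turn. PLCG1 lost its call with edgeR (0.0549) and a pseudocount of 0.1 (0.0511) as well, and SPRED2 with pseudocounts of 0.1 (0.0509) and 10 (0.0505). Counts of ADAM17, PIK3CA, ETV4 and NRG4 are uncertain where the overlapping genes IAH1, KCNMB3, DHX8 and FBXO22 contribute reads, and those of ETV5, EPHA2 and PLCG1 where an antisense gene does.

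**Figure D5:**
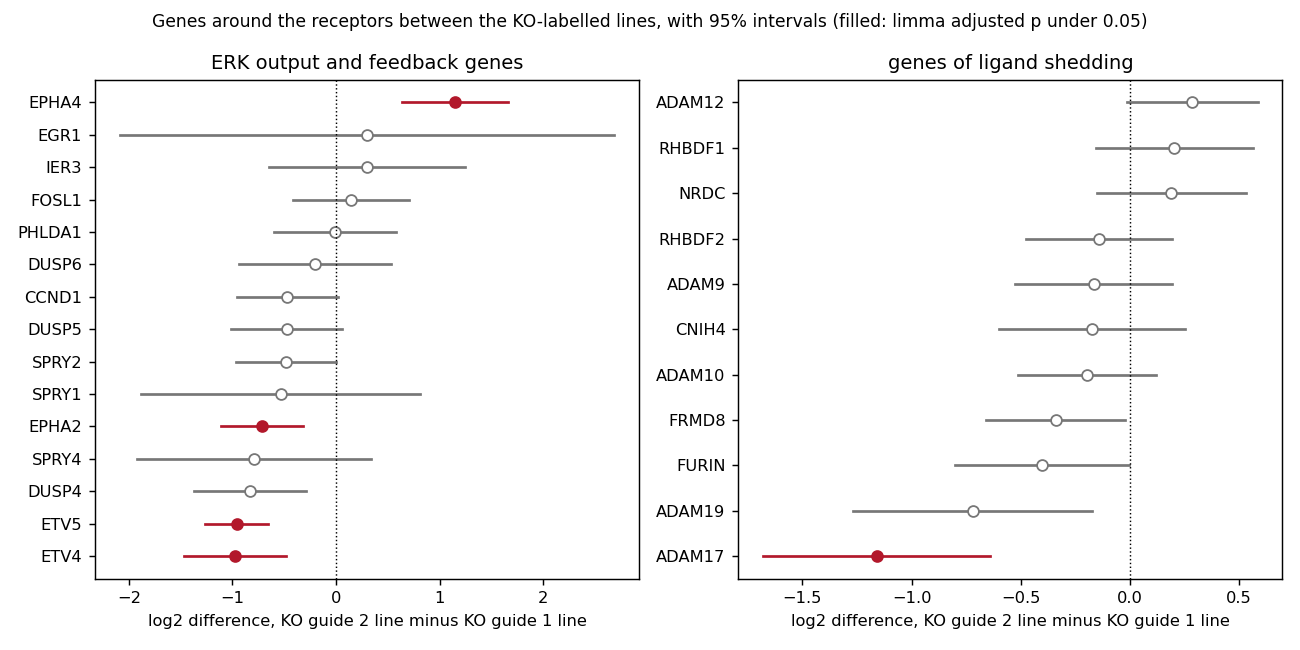
Log2 differences, KO-labelled line 2 minus KO-labelled line 1, with 95% intervals (limma), for 15 output and feedback genes of the ERK cascade and 11 genes of ligand shedding, filled red where the adjusted p was under 0.05. ETV4 (-0.98), ETV5 (-0.96), EPHA2 (-0.71) and ADAM17 (-1.16) are filled on the lower side and EPHA4 (1.15) on the higher side.

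Against the controls, KO-labelled line 1 had lower ADAM12 (-0.63, limma adjusted p 0.016) and PLCG1 (-0.68, 0.0153) and higher PTPRJ (0.64, 0.0428) and SPRED1 (0.67, 0.0337). KO-labelled line 2 had lower ADAM19 (-1.08, 0.0136), FURIN (-0.57, 0.0437), PTPRJ (-0.62, 0.0334), ETV4 (-0.99, 0.0126) and ETV5 (-0.61, 0.0131) and higher EPS15 (0.46, 0.0355). The EPS15 call was lost without each single library in turn. SPRED3 (-1.59, 0.0411) was lower in control line 2 than in control line 1, and neither of these lines carried an ANXA4 guide. Each of these 11 calls was lost without at least 1 single library (adjusted p up to 0.317), and those of PTPRJ in KO-labelled line 1, FURIN in KO-labelled line 2 and SPRED3 between the controls also without the filter. With the replicate block, of the 69 tested genes of these lists and the remaining family, 21 were called in KO-labelled line 1 (6 without it), 23 in KO-labelled line 2 (7), 12 between the controls (2) and 19 between the KO-labelled lines (10), and no call was lost. Without the block, the shares of all genes called were 7.01% and 11.2% in KO-labelled lines 1 and 2. They were 2.13% between the controls and 6.94% between the KO-labelled lines. These shares rose likewise with the block, to the blocked percentages given above for the 7 genes.

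Between replicates, 11 of the 63 genes of the 4 lists were called, 7 as higher and 4 as lower in replicate 2, beside 17.6% of all genes. EGR1, an immediate early gene, was lower by -2.04 (limma adjusted p 0.000664). The ubiquitin ligase genes CBLB (-0.69, 0.00734) and RNF41 (-0.47, 0.00512) and the kinase gene MAPK3 (-0.37, 0.032) were lower as well. The feedback genes SPRY4 (0.94, 0.00187) and DUSP6 (0.55, 0.012), the AP-1 gene FOSL1 (0.45, 0.00298) and PHLDA1 (0.45, 0.00597) were higher, as were ADAM19 (0.39, 0.0186), the phosphatase gene PTPN2 (0.32, 0.0409) and ERRFI1 (0.41, 0.0116), whose protein binds and inhibits EGFR. EGR1, CBLB, RNF41, SPRY4 and FOSL1 were called without each single library in turn. The other 6 calls were each lost without at least 1 library (adjusted p up to 0.16). That of PTPN2 was lost without each single library in turn, and also without the filter and with DESeq2 (0.0545 and 0.0754).

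For each of the 7 tested genes, the 2 genes with the most similar pattern were sought among genes with a mean of at least 50, by Pearson's r of log2 values over the 8 libraries. These values describe 8 libraries that share 4 lines and 2 replicate numbers, and they carry no p. Next to EGFR stood ZSWIM4 (0.989) and the tankyrase gene TNKS2 (0.989). TNKS2 had 989 and 979 normalized counts in KO-labelled line 1 and 604 to 884 elsewhere. For AREG they were the transcription factor gene KLF5 (0.986) and AP3M2 (0.98). KLF5 had 213 and 268 in control line 1, 448 and 627 in control line 2, 581 and 828 in KO-labelled line 1 and 491 and 669 in KO-labelled line 2. Within replicate 1 the lines stood in the same order as for AREG, and within replicate 2 control line 2 and KO-labelled line 2 changed places. TGFA was nearest to the channel gene CNGA1 (0.983) and the interleukin receptor gene IL18R1 (0.981), which was at 50.7 and 86.9 in KO-labelled line 2. HBEGF was nearest to MAMLD1 (0.984) and MARCHF3 (0.979), ERBB2 to EPN3 (0.971) and DMRTA1 (0.968), BTC to TRIM21 (0.964) and DYNC1LI2 (0.945), and ERBB3, with few reads, to ARHGAP39 (0.976) and PTPN13 (0.965).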

How the data were processed

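Per the labels, RNA of 8 libraries from 4 A-498 lines was sequenced after polyA selection. The submitters' processing notes name fastp 0.23.2, HISAT2 2.2.1, featureCounts 2.0.1, DESeq2 2.11.40.8 and the build hg38 (GRCh38). Strand use and annotation release are not given in the sources used here. The deposited values were a normalized signal per gene and library, each from a single library. Every value above 0 (100%) was a whole multiple of 1 factor per library (tolerance 1e-06, largest relative deviation 8.45e-10), so whole reads were recovered from the authors' signal. Identifiers were matched to RefSeq symbols (27745 of 28395).

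The main test was that of limma (3.58.1, R 4.3.3) on log2(value + 1), which understates the fold of low genes. It covered the 14040 genes that reached 10 in 2 or more libraries. KO-labelled and control libraries were compared with duplicateCorrelation by line (0.33), single lines in 1 model with a mean per line, and replicates in a model of line means plus replicate number. Benjamini-Hochberg adjustment of the p-values ran over all genes tested. The test script was checked on simulated data. The recovered reads were also tested with edgeR 4.0.16 (quasi-likelihood) and DESeq2 1.42.0, which called 186 and 850 genes between KO-labelled and control libraries, where limma called 33. In that comparison these count tools fitted the arm alone, so the libraries of a line counted as independent. Other alternatives were the pseudocount (0.1, 10), no filter, TMM scaling, the replicate block, line means, a fixed mean per line and leaving out each library.

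The replicate numbers, from the titles, pair the samples: the difference between replicate 2 and replicate 1 correlated across genes at 0.285 to 0.501 in all 6 pairs of lines, above a limit of 0.1. Blocked values are printed where they change a call. Reads carried no molecular identifiers, and replicates differed by more than sampling noise (chi-square per degree of freedom 18.1 to 70.6).

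The members and the lists were chosen with earlier results of these data known. The rule named ANXA4, all 9 members, the 6 other family genes, from each further list the called genes and the 3 smallest p-values between KO-labelled and control libraries, and for each tested member the 2 genes of highest Pearson correlation among genes with a mean of at least 50. One gene that the rule names is not reported here. No protein sequences were used here.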

Additional observations from a re-analysis of the deposited data

Results flagged for a closer look

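HBEGF in replicate 1 of KO-labelled line 1, at 55.6 normalized counts, stood apart from the other KO-labelled libraries (193, 231 and 247). On the scale of log2(value + 1) the gap narrowly exceeded the critical value of Dixon's test for 4 samples. On the counts themselves the gap stayed below that value. The log-scale gap was the 1 flag among 32 groups of 4 libraries tested, and chance gives about 1 in 20.

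A direct test between the KO-labelled lines (limma, line 2 minus line 1, log2) called the receptor EGFR (-1.25), the ligands TGFA (-1.42) and NRG4 (-1.59) and the target gene ANXA4 (3.998). Among genes around the receptors the difference was -1.16 for ADAM17, -1.05 for PIK3CA, 0.56 for PLCG1, -1.26 for PTPRJ and -0.57 for SPRED2. For the ERK output genes it was -0.98 for ETV4, -0.96 for ETV5, -0.71 for EPHA2 and 1.15 for EPHA4. Of the 14040 genes tested, 975 (6.94%) differed between these lines.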

How the results depend on the processing

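The number of the 7 tested members called changed with the setting in these cases. Without the filter on low values all 9 members were tested. The number called was then 0 between the controls and 1 between the KO-labelled lines, beside 0.875% and 3.28% of all genes. With edgeR it was 0 and 1 of the 7, beside 2.04% and 6.55%. DESeq2 gave 2 in KO-labelled line 1, 1 in KO-labelled line 2 and 2 between the controls, beside 10.3%, 13.1% and 4.67% of all genes. With the replicate number as a block it was 5 and 3 in KO-labelled lines 1 and 2, 3 between the controls and 5 between the KO-labelled lines, and outside the 9 the block changed no call between KO-labelled and control libraries and ended none of those between lines. A fixed mean per line gave 1 between KO-labelled and control libraries, beside 10.5% of all genes. Leaving out 1 library at a time gave 0 to 1 in KO-labelled line 1, in KO-labelled line 2 and between the controls, 0 to 2 between the KO-labelled lines and 3 to 4 between replicates. Of 116 alternative values of the called members, 87 were called in the same direction, 29 lost the call and 0 turned.

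The 33 genes called between KO-labelled and control libraries became 71 without the filter, 186 with edgeR, 850 with DESeq2, 1474 with a fixed mean per line, 0 with line means (1086 at an unadjusted p under 0.05) and 7 to 39 without single libraries, with the lowest count without replicate 1 of KO-labelled line 2. The edgeR and DESeq2 fits of KO-labelled against control libraries left out the correlation within lines. With the block, 3432 and 3851 genes were called in KO-labelled lines 1 and 2, 1752 between the controls and 3442 between the KO-labelled lines, in place of 984, 1573, 299 and 975.

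Reversed signs were those of ERBB2 between the controls (-0.0012 with edgeR and -0.0024 with DESeq2) and of ERBB4 between KO-labelled and control libraries (-0.019 with a pseudocount of 10, -0.083 with edgeR and -0.084 with DESeq2). Without single libraries, values that changed sign ranged as follows between KO-labelled and control libraries: ERBB2 from -0.21 to 0.071, HBEGF from -0.67 to 0.067, TGFA from -0.46 to 0.031 and ERBB4 from -0.38 to 0.38. In KO-labelled line 1 they were ERBB2 (-0.15 to 0.38) and ERBB3 (-0.52 to 1.19). In KO-labelled line 2 they were ANXA4 (-0.30 to 0.10), ERBB2 (-0.50 to 0.0031), HBEGF (-0.070 to 0.43) and BTC (-0.23 to 0.51). Between the controls they were EGFR (-0.23 to 0.45), ERBB2 (-0.21 to 0.21) and TGFA (-0.18 to 0.54), and between the KO-labelled lines ERBB3 (-0.60 to 1.12). None of these was called in the main setting. The cause was not tested. With 1 to 16 reads, ERBB3, EREG, EPGN and ERBB4 are limited by depth.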
